A study of Mus musculus with 2 samples.

Results

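T cells of the mouse pituitary gland were examined in 2 droplet-based single-cell RNA libraries, 1 from male C57BL/6 mice at 2 months (young) and 1 from male C57BL/6 mice at 20 months (old). C57BL/6 is an inbred laboratory strain, and no treatment or genetic change is named for either age. Glands of 10 mice were pooled into each library, so a value of a single mouse cannot be recovered and each age has 1 sample. T cells were chosen by measured values: barcodes with at least 2000 UMIs (unique molecular identifiers, 1 for each transcript captured), 500 detected genes and at most 15% mitochondrial UMIs, at least 2 UMIs summed over Cd3d, Cd3e and Cd3g, at most 5 over C1qa, C1qb and C1qc, and at most 2 over Cd79a and Cd79b. CD3 chains are the signalling partners of the T cell receptor, C1q is made by macrophages and Cd79 by B cells. The rule found 82 T cells among 9210 kept barcodes of the young library and 144 among 9783 of the old one, 226 of 18993 in all.

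T cells recognise peptides through a receptor of an alpha and a beta chain, or of a gamma and a delta chain, and CD8 and CD4 mark the lineages that read class I and class II major histocompatibility molecules. Cells that have not met antigen circulate through lymph nodes under the control of Ccr7 and S1pr1, and keep the transcription factors Lef1 and Tcf7. Cells that have met it can make chemokines, interferon gamma, perforin and granzymes, and some settle in tissues. T cells are a minor population among the hormone-producing cells of the gland.

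Each age being a single library, differences between ages were not tested and no p-value was computed. Ratios are old over young. Each range in brackets is an exact 95% interval for counting error alone and holds nothing of the variation among mice or preparations. The young T cells held 454223 UMIs with a median of 4400 per cell and the old ones 901160 with a median of 5503. No T cell barcode sequence occurred in both libraries, while 31 kept barcodes did. Over all kept barcodes the median depth was 6585 UMIs at 2 months and 3240 UMIs at 20 months. The whole libraries held 154510099 and 138427393 UMIs.

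Nearly all young T cells and most old ones carried receptor transcripts beside the CD3 transcripts that chose them. A UMI of Trac, Trbc1 or Trbc2, the constant regions of the alpha and beta chains, was found in 78 of 82 young cells (95.1%, 88.0 to 98.7) and 119 of 144 old cells (82.6%, 75.4 to 88.4). The same share was 4.88% of 205 young and 8.00% of 125 old B cells, with medians of 3920 and 4909 UMIs. These transcripts do not mark T cells alone. Among natural killer (NK) cells, chosen without a CD3 UMI, Trbc1 had a UMI in 33 of 63 young and 33 of 42 old cells. Trbc2 had a UMI in 22 and 31 of these NK cells, and Trac in 4 and 2. CD3 UMIs per T cell ran from 2 to 21 with a median of 7 in the young library and from 2 to 33 with a median of 8 in the old one. All 4 defining markers, Cd3e, Cd3g, Trbc1 and Trbc2, were detected at both ages. Cd3e and Cd3g belong to the rule that chose the cells, so their detection adds no support.

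The old set contained a second kind of barcode at the edge of the rule. Of 31 old members with exactly 2 CD3 UMIs, 27 had more than 20% of their UMIs from 7 hormone genes, and 7 (22.6%) had a UMI of Trac, Trbc1 or Trbc2. Of 102 old members with 4 or more CD3 UMIs, 1 was over 20% hormone UMIs and 102 had such a UMI. Just outside the rule, at 1 CD3 UMI, lay 27 young and 536 old barcodes, of which 40.7% and 93.1% were over 20% hormone UMIs. In all, 29 old members lay above 20%, between 27.7% and 37.5%, close to the 34.6% of that library's near-empty barcodes of 10 to 100 UMIs, and their median depth was 2964 UMIs. The 4 young members above 20% had a median of 13215.5 UMIs and up to 64.2% hormone UMIs. Without members over 20% hormone UMIs 78 young and 115 old cells remained, and the main shares and list medians are also given for these.

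**Figure D1:**
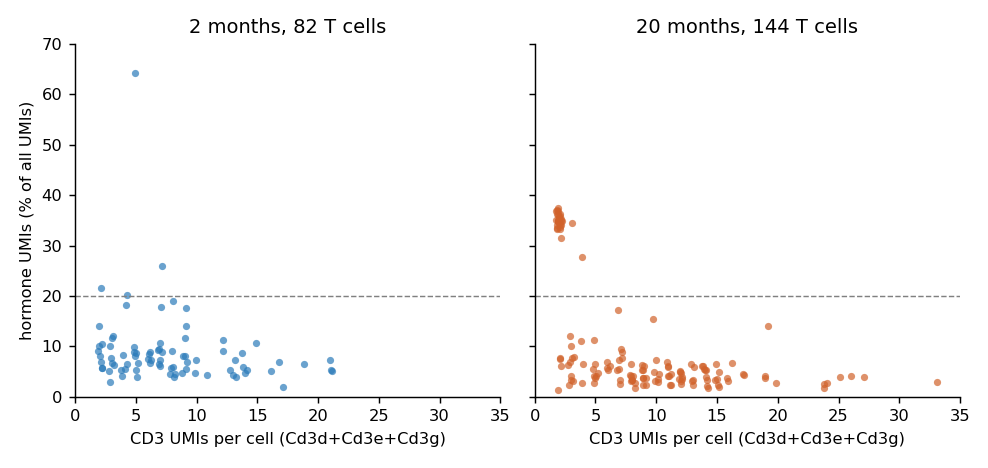
CD3 UMIs per T cell (horizontal axis, Cd3d, Cd3e and Cd3g summed, with a small horizontal offset for display) and the percent of UMIs from 7 hormone genes (vertical axis) for the 82 young and 144 old T cells, 1 point per cell, with a dashed line at 20%. The 29 old cells above the line gather at 2 CD3 UMIs and 27.7% to 37.5% hormone UMIs, while the young library has 4 cells above it.

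T cells were 0.890% (0.709 to 1.10) of kept young barcodes and 1.47% (1.24 to 1.73) of kept old ones, a ratio of 1.65 (1.25 to 2.20). Without members over 20% hormone UMIs the ratio was 1.39 (1.03 to 1.87). Among barcodes with a UMI of Ptprc, the pan-leukocyte gene, T cells were 7.17% of 1018 young and 9.97% of 1144 old barcodes, a ratio of 1.39 (1.03 to 1.89). These ratios depended on the minimum depth, and kept barcodes differed in depth between the libraries as given above. At 1000 UMIs the share of kept barcodes had a ratio of 1.00 (0.768 to 1.32) and the share of Ptprc-positive barcodes 1.14 (0.842 to 1.54), whereas at 4000 UMIs they were 4.42 (3.13 to 6.33) and 2.49 (1.73 to 3.65). The share of T cells among T, NK and B cells was 23.4% at 2 months and 46.3% at 20 months, or 22.5% and 40.8% without members over 20% hormone UMIs. NK cells, lymphocytes without a T cell receptor, had a ratio of 0.628 (0.414 to 0.942) among kept barcodes and B cells 0.574 (0.456 to 0.721).

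CD8 T cells made up a larger part of the old set. Cells with a UMI of Cd8a or Cd8b1 and none of Cd4 were 27 of 82 young T cells (32.9%, 22.9 to 44.2) and 81 of 144 old ones (56.3%, 47.7 to 64.5), a ratio of 1.71 (1.09 to 2.75). Without members over 20% hormone UMIs they were 32.1% and 70.4%, a ratio of 2.20 (1.39 to 3.59). With each cell thinned to 2000 UMIs they were 29.3% and 47.2%, a ratio of 1.61 (1.00 to 2.69), and without cells with 2 or more UMIs of the NK genes Ncr1, Klrb1c and Klre1 the ratio was 1.42 (0.894 to 2.32). With a minimum of 1000 UMIs it was 1.51 (0.967 to 2.43). None of 205 young B cells had a UMI of Cd8a or Cd8b1 and 0.800% of 125 old ones did.

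CD4 T cells were few at both ages, 7 young (8.54%) and 9 old cells (6.25%). Among cells positive for only 1 of the co-receptors, CD8 cells were 27 of 34 young (79.4%, 62.1 to 91.3) and 81 of 90 old cells (90.0%, 81.9 to 95.3), a ratio of 1.13 (0.725 to 1.82), so that this share was not distinguishable at these cell numbers. Cd4 itself gave 9 UMIs over all young cells and 16 over all old cells, and a cell with no Cd4 UMI may still be a CD4 cell. Foxp3, the factor that defines regulatory T cells, had no UMI in 226 cells. A count of 0 still allows a Foxp3 UMI in up to 4.40% of young and 2.53% of old cells by the exact interval, which limits cells with a UMI and not cells that express the gene.

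T cells with a delta chain transcript were a larger part of the young set. Trdc, the delta chain constant region, had a UMI in 15 young (18.3%, 10.6 to 28.4) and 8 old cells (5.56%, 2.43 to 10.7), and in none of the B cells. NK cells, chosen without a CD3 UMI, also had a Trdc UMI in 7 of 63 young and 1 of 42 old cells. A Trdc UMI therefore does not by itself mark a gamma-delta T cell. Thinned to 2000 UMIs these shares were 12.2% and 2.08%. Its summed level was 178 CPM (the usual scaling of counts to library total, here the UMIs outside 7 hormone and 13 mitochondrial genes) in young and 27.7 CPM in old cells, 6.43-fold lower (3.93 to 10.9). Cells with neither co-receptor and a Trdc UMI were 17.1% and 4.86% of T cells, or 16.7% and 6.09% without members over 20% hormone UMIs. Tcrg-C2, a gamma chain constant region, went the other way, from 20.7 to 64.2 CPM, a ratio of 3.11 (1.46 to 7.58). Of its 51 old UMIs, 35 lay in CD8 cells, where Trdc had 3. Gamma chain constant regions are similar in sequence, and how reads were divided between them is not given in the sources used here.

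**Figure D2:**
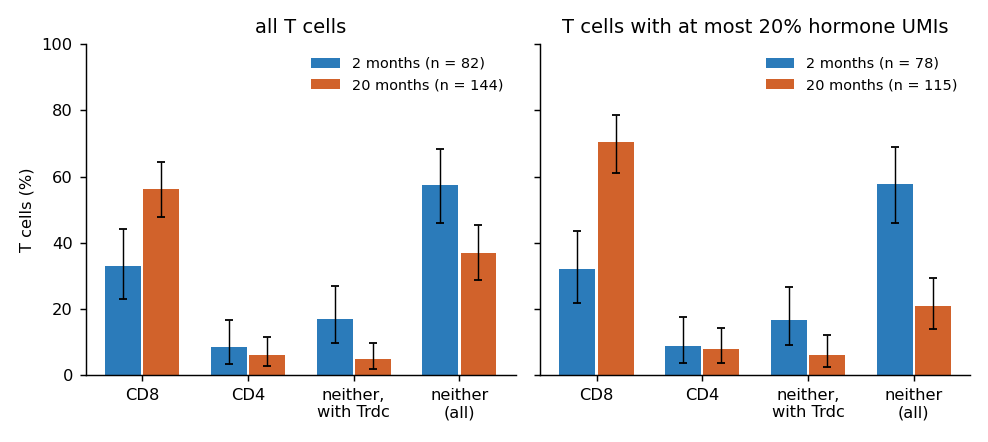
Percent of T cells that were CD8, CD4, negative for both with a Trdc UMI, or negative for both in all, at 2 and 20 months, over all T cells (left) and over those with at most 20% hormone UMIs (right). Bars are shares and whiskers exact 95% binomial intervals: the CD8 bar is at 32.9% and 56.3% on the left and at 32.1% and 70.4% on the right.

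Genes of naive and central memory T cells were lower in the old set. Of 17 genes in this list, 14 had at least 40 UMIs over both libraries, 11 were lower and 3 higher in old cells, and 6 were at least 2-fold lower. Their median log2 ratio was -0.91, beside 0.16 over all 4076 genes measured. Of all genes, 53 (1.3%) were at least 2-fold lower and 250 (6.13%) at least 2-fold higher, a split that became 79 lower and 156 higher when that overall shift of 0.16 was removed. Ccr7, the receptor that guides T cells into lymph nodes, was at 457 CPM in young and 113 CPM in old cells, 4.03-fold lower (3.11 to 5.26), with a UMI in 33 of 82 and 26 of 144 cells. Thinned to 2000 UMIs, 34.1% (24.0 to 45.4) of young and 9.72% (5.42 to 15.8) of old cells had a Ccr7 UMI, and the highest cell held 9 and 5 UMIs.

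Lef1, a transcription factor of naive T cells, was at 194 and 74.3 CPM, 2.61-fold lower (1.83 to 3.73). Satb1, a chromatin organiser, was at 333 and 164 CPM, and Actn1, an actin cross-linker, at 95.5 and 35.2 CPM, with 27.7 and 38.7 CPM in near-empty barcodes. The exit receptor S1pr1 had a ratio of 0.515 (0.367 to 0.725). Klf2, a factor that drives S1pr1, was at 0.555 (0.491 to 0.627). Klf2 is also abundant in free RNA, with 503 and 666 CPM in near-empty barcodes against 1286 and 714 CPM in T cells. Members of the list differed in direction. Tcf7, another factor of naive cells, had a ratio of 0.917 (0.623 to 1.37), and Il7r, the receptor for the survival cytokine interleukin 7, was higher by summed level at 1.33 (1.08 to 1.63). The share of thinned cells with an Il7r UMI went the other way, 36.6% in young and 26.4% in old cells, so that no direction is read for this gene. The list median was -0.41 when T cells were defined by receptor constant regions in place of CD3, and -1.24 without cells carrying NK genes. Definition by constant regions can also admit NK cells, many of which carried Trbc1 or Trbc2.

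Genes of cytotoxic and effector T cells were mostly higher in the old set. Of 23 genes 20 were measured, 15 of them higher and 5 lower, against 2625 higher of all 4076 genes. The median log2 ratio of the list was 0.63, and 6 of its genes were at least 2-fold higher, a larger share than the 6.13% of all genes. Ccl5, a chemokine kept ready in memory CD8 T cells, had the most UMIs of the list, at 3707 CPM in young and 6972 CPM in old cells, a ratio of 1.88 (1.77 to 1.99). Per cell thinned to 2000 UMIs, Ccl5 ran from 0 to 76 UMIs with a median of 0 in young cells and from 0 to 58 with a median of 8.5 in old cells. Thinned cells with a Ccl5 UMI were 45.1% (34.1 to 56.5) and 75.7% (67.9 to 82.4), against 0.488% and 2.40% of B cells. Near-empty barcodes held 55.4 CPM of Ccl5 in the young and 487 CPM in the old library.

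Ifng, which encodes interferon gamma, was at 163 CPM in young and 417 CPM in old cells, a ratio of 2.56 (1.95 to 3.41). The granzymes, proteases delivered into target cells, had ratios of 2.68 (1.51 to 5.13) for Gzmk, 2.15 (1.43 to 3.30) for Gzma and 1.90 (1.35 to 2.74) for Gzmb. Gzma was carried by few cells, 6 young and 13 old, while Gzmb had a UMI in 9 young and 45 old cells. Prf1, the pore-forming perforin, was at 2.10 (1.21 to 3.88), the death ligand Fasl at 2.02 (1.34 to 3.14) and the chemokine Ccl4 at 1.69 (1.47 to 1.94), with 346 and 528 CPM of Ccl4 in near-empty barcodes. Eomes, a T-box transcription factor of memory and effector cells, was at 10.3 and 66.7 CPM, from 4 UMIs in 4 young cells and 53 UMIs in 26 old cells. Xcl1, a chemokine that attracts dendritic cells, was lower in old cells, at 751 and 420 CPM, a ratio of 0.560 (0.477 to 0.657). With each cell thinned to 2000 UMIs the list median was 0.32, beside 0.10 over all genes, and with membership by receptor constant regions it was 0.28.

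Promoters of 3 of these genes are shown because a short sequence recurred upstream of the start sites of the list. RUNX factors, which include Runx3 of CD8 T cells, bind around the letters TGTGGT, T-box factors, which include Eomes, around GGTGTGA, and TCF and LEF factors around CTTTGAT. RefSeq promoter sequence (build GRCm38.p6) was found for 16 of the 20 measured genes, and Ccl4, Ccl5, Ctsw and Klrd1 had no entry. Entries were found for 10 of 14 measured naive genes, without Ccr7 and S1pr1, 8 of 14 residency genes and 5 of 6 inhibitory genes. These are too few genes to set a count of 0 of 10 apart from the share over all genes. On either strand of the 250 bases before the start, TGTGGT was present in 10 of 16 genes (62.5%), against 14.2% of 27025 genes with an entry, in 0 of 10 naive and central memory genes, in 4 of 8 tissue-residency genes and in 1 of 5 inhibitory genes. GGTGTGA was present in 3 of 16, against 3.31% of all genes, and CTTTGAT in 0 of 16 and in 0 of 10 naive genes, against 3.23%. Capitals mark these letters or their reverse complement, 5′ to 3′ on the strand of the gene. The windows are chr14:56262335-56262584 on the minus strand for Gzmb, chr10:61297586-61297835 on the plus strand for Prf1 and chr7:43436888-43437137 on the plus strand for Nkg7, a granule membrane protein.
Gzmb: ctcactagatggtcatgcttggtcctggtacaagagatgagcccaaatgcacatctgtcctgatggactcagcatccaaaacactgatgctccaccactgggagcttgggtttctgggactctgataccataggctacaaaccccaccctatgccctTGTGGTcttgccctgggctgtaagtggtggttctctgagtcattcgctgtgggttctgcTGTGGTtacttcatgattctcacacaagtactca
Prf1: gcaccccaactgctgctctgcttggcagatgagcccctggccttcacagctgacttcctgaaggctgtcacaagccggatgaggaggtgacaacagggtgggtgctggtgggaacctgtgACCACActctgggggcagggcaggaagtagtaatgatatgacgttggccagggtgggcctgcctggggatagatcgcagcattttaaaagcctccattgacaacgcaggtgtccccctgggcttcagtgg
Nkg7: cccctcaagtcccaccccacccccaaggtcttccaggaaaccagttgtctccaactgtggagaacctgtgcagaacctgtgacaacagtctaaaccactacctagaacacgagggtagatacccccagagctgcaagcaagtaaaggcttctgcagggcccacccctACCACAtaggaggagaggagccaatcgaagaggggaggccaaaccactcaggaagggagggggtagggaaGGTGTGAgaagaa
The TGTGGT letters began 93 and 34 bases before the start in Gzmb, 130 in Prf1 and 83 in Nkg7, and GGTGTGA 13 bases before it in Nkg7. Members of the list with TGTGGT did not share a direction: Gzmb and Prf1 were higher in old cells, whereas Xcl1, which held both motifs, was lower. Klrc1, Klrc2 and Klrk1 are related receptor genes, so that their matches are not independent, and a match is not evidence of binding.

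**Figure D3:**
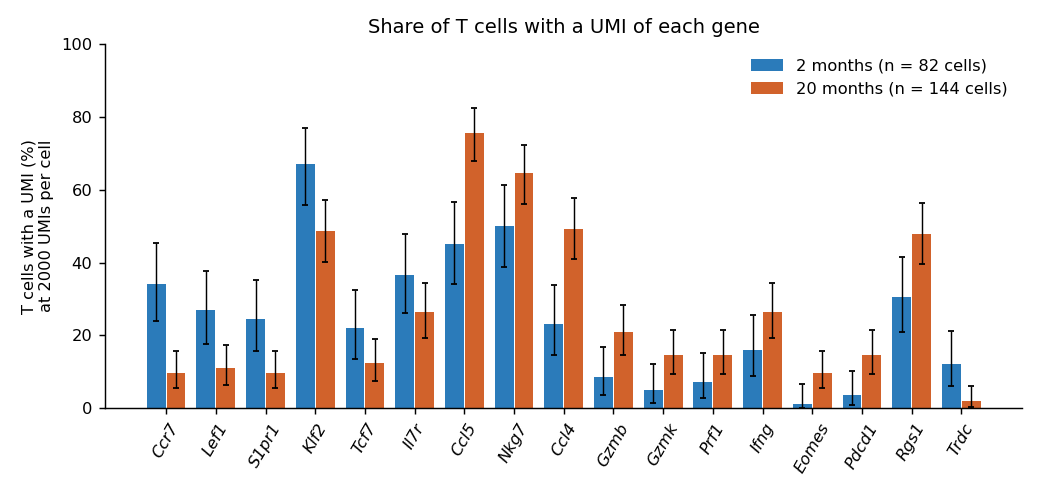
Percent of T cells with at least 1 UMI of each gene after every cell was thinned to 2000 UMIs, for 82 young and 144 old cells, with exact 95% binomial intervals. Naive genes on the left have taller young bars (Ccr7 34.1% and 9.72%), effector genes taller old bars (Ccl5 45.1% and 75.7%), and Trdc a taller young bar.

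Receptors and factors of restrained, chronically stimulated T cells were higher in the old set, from low counts. Of 14 genes of this list 6 were measured, 5 of them higher, 3 at least 2-fold, with a median log2 ratio of 0.94. Over all genes 2625 of 4076 were higher, 6.13% were at least 2-fold higher, and the median was 0.16. Genes higher in old cells reach the minimum for measurement more easily, because the old sum was larger. With 6 genes, the part of this in the median was not tested. Pdcd1, the inhibitory receptor PD-1, was at 33.6 CPM in 8 young cells and 99.4 CPM in 34 old cells, a ratio of 2.96 (1.64 to 5.81). Ctla4, another inhibitory receptor, was at 3.10 (1.63 to 6.50), Nr4a2, a factor induced by receptor signalling, at 2.02 (1.62 to 2.54), and Tox, a factor tied to chronic stimulation, at 1.87 (1.10 to 3.34). Cd160 was at 0.860 (0.556 to 1.35). Lag3, Tigit and Havcr2 stayed under the minimum, with 2, 1 and 0 UMIs in young and 13, 6 and 12 in old cells.

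Tissue-residency genes were measured for 14 of 17, of which 11 were higher, 2 of them at least 2-fold, and 3 lower, with a median log2 ratio of 0.45. Higher genes were 2625 of 4076 over all genes. After thinning that median was 0.14, close to the 0.10 of all genes. Runx3, which drives both the CD8 lineage and residency, was at 103 and 219 CPM, a ratio of 2.12 (1.50 to 3.07). Rgs1, a brake on chemokine signalling, was at 382 and 718 CPM, 1.88 (1.56 to 2.27), and Itga1, a collagen-binding integrin chain, at 1.68 (1.12 to 2.57). Itgae, which encodes CD103, had 7 UMIs in 5 young cells and 42 in 13 old cells. Cd69, a common marker of resident cells, was at 0.864 (0.720 to 1.04). In the memory and trafficking list 15 of 20 were higher with a median of 0.24, near the all-gene values of 2625 of 4076 and 0.16. Its members included the integrin chains Itga4 at 2.25 (1.65 to 3.10), Itgal at 2.05 (1.31 to 3.31) and Itgb1 at 2.02 (1.55 to 2.67), while Cd44 was at 0.958 (0.603 to 1.55).

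The medians of these lists lay further from 0 within CD8 cells, of which 27 were young and 81 old. There the median log2 ratio was -1.30 for the naive list (9 of 12 measured genes lower), 1.19 for the cytotoxic list (15 of 17 higher), 1.09 for residency (11 of 13 higher) and 1.22 for inhibitory receptors (6 of 6 higher), beside 0.21 over 2433 genes. Of these 2433 genes, 1559 were higher and 874 lower. At least 2-fold differences numbered 311 (12.8%) higher and 37 (1.52%) lower. Ccr7 was at 627 CPM in young and 105 CPM in old CD8 cells, and Klf2 at 1872 and 701 CPM. Gzmb was at 95.8 and 259 CPM, Ifng at 125 and 479 CPM, Ccl4 at 258 and 1398 CPM, and Rgs1 at 162 and 704 CPM, a ratio of 4.34 (2.83 to 7.01). Pdcd1 had 4 UMIs in young and 66 in old CD8 cells, a ratio of 4.14 (1.54 to 15.6). Gzmk, by contrast, was at 1.36 (0.727 to 2.76), and Xcl1 at 1.00 (0.739 to 1.38).

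In T cells with neither co-receptor, 47 young and 53 old, the same lists lay near 0: -0.11 for naive, -0.01 for cytotoxic and 0.02 for residency genes, over 7, 12 and 11 measured genes. The old cells of this kind had a median of 33.3% hormone UMIs and the young ones 7.71%, and the part of this in the values was not tested. Without members over 20% hormone UMIs, 45 young and 24 old cells of this kind remained. No UMI of Trac, Trbc, Trdc or Tcrg-C was found in 1 of the 47 young and 24 of the 53 old cells. The values near 0 thus do not show that T cells without a co-receptor UMI were alike at both ages. In NK cells the cytotoxic list had a median of -0.14 (8 of 19 higher). Over all 1932 genes measured there the median was 0.05, and 1052 were higher. In NK cells Ccl5 had a ratio of 0.817 (0.766 to 0.872), Ifng of 0.764 (0.482 to 1.20) and Gzmb of 0.875 (0.706 to 1.08). The chemokines Ccl4 and Ccl3 of the same list were higher in old NK cells, at 1.68 (1.53 to 1.84) and 2.75 (2.10 to 3.64). Residency genes had a median of 0.50 in NK cells, where Rgs1 was at 1.41 (1.21 to 1.65) and Itga1 at 2.23 (1.27 to 4.02). Inhibitory genes were higher in old NK cells as well, 4 of 4 measured with a median of 0.67, and Pdcd1, under the minimum there, had 1 young and 36 old UMIs. Whether T and NK cells differed in these ratios could not be tested with 1 library per age.

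**Figure D4:**
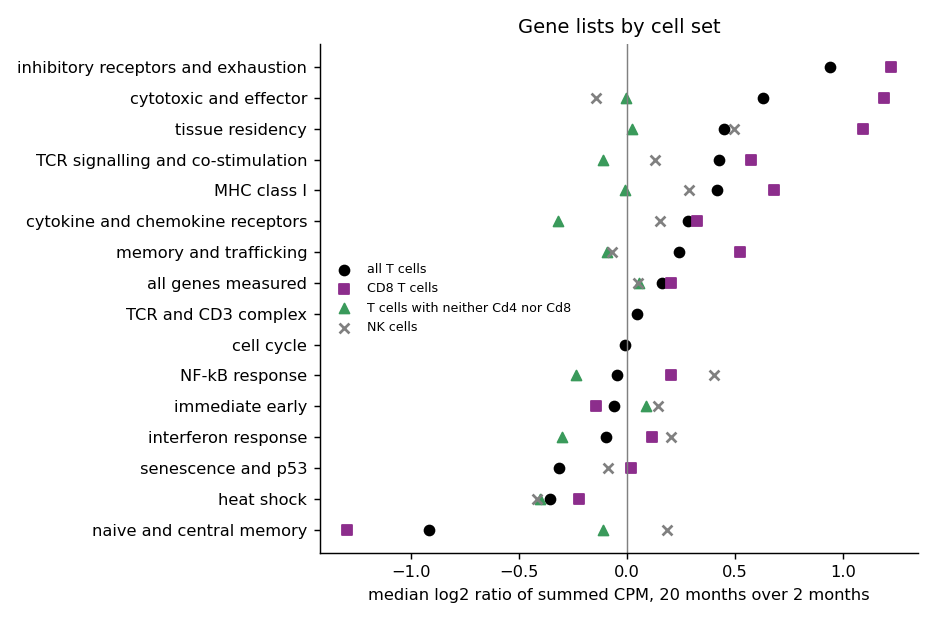
Median log2 ratio of summed CPM, old over young, for each gene list with at least 5 measured genes, in all T cells (circles), CD8 T cells (squares), T cells with neither Cd4 nor Cd8 (triangles) and NK cells (crosses). For the naive list all T cells are at -0.91 and CD8 cells at -1.30, for the cytotoxic list they are at 0.63 and 1.19, and NK cells are at -0.14 for the cytotoxic list.

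Single CD8 cells were sorted by 4 genes of these lists. The lists were already compared between the ages above. The shares below thus describe the same differences per cell and add no separate support to them. At 2000 UMIs per cell, a cell with a Cd8a or Cd8b1 UMI was called naive-type here when it had a UMI of Ccr7 or Lef1 and at most 1 UMI over Ccl5 and Nkg7. It was called effector-type with 2 or more UMIs over Ccl5 and Nkg7 and none of Ccr7 or Lef1. Naive-type cells were 13 of 24 young (54.2%, 32.8 to 74.4) and 4 of 68 old cells (5.88%, 1.63 to 14.4). Effector-type cells were 7 of 24 (29.2%, 12.6 to 51.1) and 58 of 68 (85.3%, 74.6 to 92.7), and cells with both kinds of genes 2 of 24 and 5 of 68. Without thinning, naive-type cells were 9 of 28 and 4 of 82, and effector-type cells 8 of 28 and 55 of 82. Cells with both were then 10 of 28 (35.7%, 18.6 to 55.9) and 23 of 82 (28.0%, 18.7 to 39.1), more than the naive-type cells in either library, so that CD8 cells did not fall into separate classes at full depth. The CD8 chains differed as well. Cd8a had a UMI beside Cd8b1 in 12 of 27 young (44.4%, 25.5 to 64.7) and 66 of 81 old CD8 cells (81.5%, 71.3 to 89.2). These shares are at full depth, with a median of 4598 UMIs in young and 6531 in old CD8 cells, and depth raises such shares. Cd8a took 19.6% (13.4 to 27.0) of the summed Cd8a and Cd8b1 UMIs of young CD8 cells and 38.2% (34.3 to 42.2) of those of old ones, while Cd8b1 was at 848 and 695 CPM.

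CD8 and CD4 cells differed in the same direction in both libraries for 174 (6.55%) genes higher and 27 (1.02%) genes lower in CD8 cells by at least 2-fold, of 2655 measured. The CD4 sums were small, 31250 UMIs from 7 young and 43884 from 9 old cells. Ccl5 was at 3929 CPM in young CD8 cells with no UMI in young CD4 cells, at least 36.9-fold higher against a floor of 3 counts over the CD4 cells, and 3.30-fold higher (2.71 to 4.05) in old ones. Nkg7 was at least 8.31-fold higher in young CD8 cells and 2.41-fold (1.58 to 3.87) in old ones. Ly6c2, a surface protein of memory CD8 cells, was at least 2.28-fold and 5.88-fold higher against the same floor. The other named genes were Cd8b1, which the split itself used, Vim, Epsti1, Ctsw and Id2, and no gene met the rule in the CD4 direction. In that direction the rule asked for 30 UMIs in the CD4 cells of each library, which is hard to reach in sums this small. The lack of named CD4 genes is therefore not evidence that no gene was higher in CD4 cells. Epsti1 and Id2 each rested on 1 UMI in young CD4 cells, and their old intervals began below 1, at 0.994 and 0.960.

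Among single genes, 153 were at least 2-fold higher and 15 at least 2-fold lower under limits on counts, cells and free RNA. Over the 4076 measured genes, without these limits, 250 were higher and 53 lower. The limit of 30 UMIs in the higher library is a lower level in the larger old sum. Rufy2 entered with 30 old UMIs at 37.8 CPM, and Rflnb with 32 young UMIs at 82.6 CPM. The split of 153 to 15 is thus partly set by the rule. Zeb2, a transcription factor of terminally differentiated effector cells, had 53 UMIs in 34 old cells and none in the young ones, at least 8.61-fold higher against a floor of 3 counts. Runx2, a transcription factor related to Runx3, had 32 UMIs in 23 old cells and 1 UMI in the young ones, a ratio of 15.6 (2.61 to 635). Cd8a was 3.93-fold (2.67 to 6.00) and Cd40lg, a ligand with which T cells help B cells, 8.29-fold (2.12 to 71.2) higher. The remaining named genes were Rufy2, Eomes, Atxn1, Ifng, Rnf157, Lrrcc1, Vps13c and the receptor Gpr171, with ratios from 2.56 to 14.6. With membership by receptor constant regions the log2 ratio of Zeb2, 5.71 with 0.5 UMI added, was 1.53, and that of Rufy2, otherwise 3.31, was 1.02.

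The lowest ratio of the named genes belonged to Klra1, a receptor of the Ly49 family found on NK cells and some T cells, at 85.2 CPM in young and 8.81 CPM in old cells. It had 33 UMIs in 10 young cells, and none in young CD8 cells. Cxcl10, an interferon-induced chemokine, was at 372 and 104 CPM, 3.56-fold lower (2.70 to 4.72), but within CD8 cells it had 5 young and 29 old UMIs, a ratio of 1.45 (0.557 to 4.81). Nfkbia, the inhibitor of NF-kB, was at 1120 and 487 CPM, 2.30-fold lower, with a UMI in 74 and 97 cells. In Phlda1, 1 young cell held 53.5% of that library's 43 UMIs. Topors, Rflnb and Crlf3 completed the 12 together with Trdc, Ccr7, Lef1, Actn1 and Satb1.

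**Figure D5:**
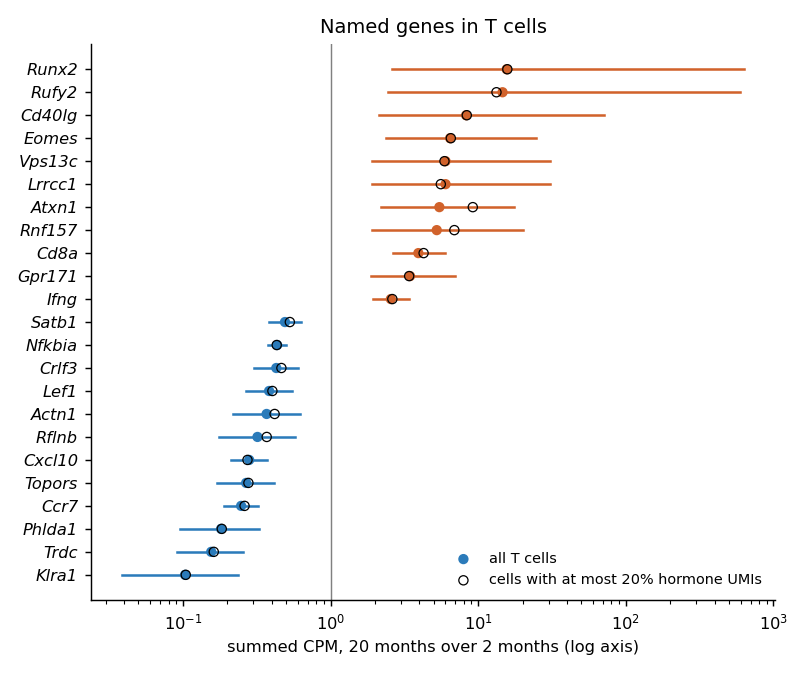
Ratio of summed CPM, old over young on a log axis, for the named genes with a UMI in both libraries, with exact 95% Poisson intervals as lines. Filled points are all T cells and open circles the cells with at most 20% hormone UMIs: Klra1 is lowest at 0.103 and Runx2 highest at 15.6, and Zeb2, with no young UMI, is not drawn.

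Without members over 20% hormone UMIs, 227 (6.1%) genes were at least 2-fold higher and 62 (1.66%) at least 2-fold lower of 3724, with list medians of -0.89 for naive, 0.62 for cytotoxic, 0.48 for residency and 0.99 for inhibitory genes. Naive genes were then lower in 12 of 14 and cytotoxic genes higher in 17 of 20, beside 1349 lower and 2375 higher of all 3724. Atxn1 had a ratio of 9.20 in place of 5.46. Genes of other cell types were also present in T cells. Cells with 2 or more UMIs of Ncr1, Klrb1c and Klre1 were 16 of 82 young (19.5%, 11.6 to 29.7) and 17 of 144 old (11.8%, 7.03 to 18.2). These intervals overlap, and without members over 20% hormone UMIs the shares were 19.2% and 14.8%. The 9 NK markers summed to 865 and 420 CPM, against 522 and 948 CPM in near-empty barcodes, with Klra8 at 0 in young cells. Fcer1g, a signalling adaptor of NK and gamma-delta cells, was at 382 and 147 CPM, with 231 and 366 CPM in near-empty barcodes. Removing the cells with NK genes left 66 young and 127 old cells, with a cytotoxic median of 1.02.

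Transcripts of other cell types that were also abundant in near-empty barcodes were more frequent in the old set. Igkc, an antibody light chain, had a UMI in 1 young and 90 old T cells, and H2-Aa or Cd74, of antigen-presenting cells, in 10 and 95. Without members over 20% hormone UMIs, Igkc was still found in 64 of 115 old cells. The 8 B cell markers summed to 178 and 386 CPM, against 139 and 3380 CPM in near-empty barcodes. Macrophage markers summed to 108 and 361 CPM over 10 genes, and dendritic cell markers to 87.8 and 754 CPM over 7. H2-Aa and H2-Ab1, which other antigen-presenting cells also express, held most of the latter at 346 and 394 CPM, and 1 old cell held 316 of the 857 UMIs of H2-Aa and Cd74. A single young cell held 137 of the 138 UMIs of the neutrophil genes S100a8 and S100a9 in young T cells. The part of these transcripts in the differences was not tested, while the list medians after subtraction of the near-empty profile were -0.96 for naive and 0.67 for cytotoxic genes.

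Other lists differed less. Over all 4076 genes, 2625 were higher and 1451 lower, with a median of 0.16. Genes of receptor signalling and co-stimulation were higher in 24 of 25, with a median of 0.43, and Cd5 at 2.93 (1.49 to 6.41) and Themis at 2.33 (1.46 to 3.87) were the 2 past 2-fold. After thinning, which alters depth, cell weights and the genes measured together, the median was 0.06, below the 0.10 of all genes. MHC class I genes were higher in 12 of 14 with a median of 0.42. In NK cells 9 of 11 of them were higher with a median of 0.29, beside 0.05 over all genes there. Heat shock genes were lower in 12 of 13 with a median of -0.36, with Hspa1a at 0.534 (0.468 to 0.609) and, in near-empty barcodes, at 3218 and 1903 CPM, above its 1141 and 609 CPM in T cells. NK cells gave a heat shock median of -0.42 over 12 genes. Immediate early genes, which respond to stimulation and to tissue dissociation, had a median of -0.06, with Atf3 at 0.426 (0.357 to 0.507), a gene that was also higher in near-empty barcodes than in T cells. Interferon response genes were at -0.10, NF-kB response genes at -0.04 and senescence and p53 genes at -0.31, and Cdkn2a had 0 young and 4 old UMIs. Cytokine and chemokine receptors were higher in 15 of 17 (median 0.28), cell cycle genes in 3 of 7 (-0.01), and ribosomal protein genes lower in 46 of 58 (-0.25).

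Cytokines of helper T cells other than Ifng were rare. Il17a had 10 UMIs in 1 young cell and 1 UMI in 1 old cell, Il4 had 6 and 1 UMIs, and Il13 and Il21 had none. Mki67, a gene of dividing cells, had 2 UMIs in 1 young cell and 45 UMIs in 10 old cells, 8 of them CD8-positive, and 1 old cell held 25 of the 45. Variable segments of the receptor were sparsely read from the 3′ end. Beta chain segments gave 5 UMIs over 4 genes in young and 26 UMIs over 13 genes in old cells, and no Trbv gene was seen in more than 4 old cells. Trgv2, a gamma chain segment, was the most detected variable gene, with 13 UMIs in 11 young cells and 35 UMIs in 21 old cells.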

How the data were processed

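Single-cell suspensions of 10 pooled glands per age were measured with a droplet-based 3' kit, per the labels. The authors deposited UMI counts by gene for every barcode, without cell calling or normalisation, per the file headers and values. Build GRCm39, FastQC and Cell Ranger 6.0.2 appear in the submitters' processing notes; the header inside the matrices gives a different Cell Ranger version, 4. Both files list 32285 genes.

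T cells were taken by fixed UMI limits, without clustering or a doublet caller; members over 20% hormone UMIs and members with 2 or more NK gene UMIs were removed as alternatives. The members and all gene lists were chosen with earlier results of these data known, and a ribosomal list was added after the data were seen. NK cells had no CD3 UMI, at least 2 UMIs of Ncr1, Klrb1c and Klre1 and the same C1q and Cd79 limits, and B cells at least 3 Cd79 and at most 1 CD3 UMI with the same C1q limit.

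Counts were summed over cells per library and expressed as CPM of UMIs outside 7 hormone and 13 mitochondrial genes. Ratios have exact conditional Poisson intervals and shares exact Clopper-Pearson intervals at 95%; log2 ratios had 0.5 UMI added. PCR and droplet errors, mice and pools are not covered. A gene was measured with at least 40 UMIs over both libraries. T cell and CD8 cell sums were larger in the old library, so genes higher in old cells pass this minimum more easily. Named genes had a ratio of at least 2 in either direction, 30 UMIs, a UMI in 10% of cells and 2 times the CPM of near-empty barcodes in the higher library, without ribosomal, mitochondrial, haemoglobin, hormone, rule and unnamed genes; the 12 highest and 12 lowest were ranked by the interval bound nearer 1. For CD8 over CD4 cells the rule had to hold in both libraries, with 8 in each direction at most. Any gene of a list could be named. Some list members are not reported by name here. Cells were thinned to 2000 UMIs with a fixed seed.

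The calculation was tested on simulated data. Alternatives covered depth, mitochondrial and CD3 limits, membership, totals, gene filters, free RNA, cell weights and single cells. Python 3.11.15, numpy 2.4.6, scipy 1.17.1, pandas 2.3.3 and matplotlib 3.10.9 were used.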

Additional observations from a re-analysis of the deposited data

How the results depend on the processing

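No paired analysis was possible because each age has 1 library. The ratio of T cell shares of kept barcodes was 1.65, and 1.00 at 1000 and 4.42 at 4000 UMIs; the share of Ptprc-positive barcodes was 1.39, and 2.49 at 4000 UMIs. The CD8 share of T cells kept its direction under all 8 alternatives, which were chosen after seeing the data, from 1.42 to 2.20. The CD8 share of single-positive cells stayed within its interval under 9 alternatives, from 0.993 to 1.20. Counts of genes past 2-fold moved most. Against 250 higher and 53 lower, they were 680 and 135 at 20 UMIs per gene, 48 and 13 at 100, and 4377 and 2140 with no minimum beyond 1 UMI. They were 473 and 103 after subtraction of the profile of 10 to 100 UMIs, 455 and 120 with that of 500 to 900 UMIs, 408 and 33 without the cell with the most UMIs of each gene, and 68 and 21 after thinning, where fewer UMIs leave fewer genes measured. Scaling by the median of ratios, which removes the shift of 0.16, gave 156 higher and 79 lower, and membership by receptor constant regions gave 99 lower. For CD8 over CD4 cells the 174 genes became 487, 34, 2958, 646 and 43 under the filters of 20, 100 and 1 UMIs, without the top cell and after thinning. Lists with a median above that of all genes numbered 7 of 15, and 4 after thinning. Of 261 list medians under alternatives 228 moved by less than 0.25, and none past 0.5 in size changed sign. Named genes kept their direction except Klra1 and Cxcl10, at log2 ratios of 1.46 and 0.43 within CD8 cells, an alternative chosen after seeing the data. Causes beyond fewer genes or cells were not tested. Depth limits genes under about 40 UMIs, where 1 cell can set a ratio.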
